A study of Mus musculus with 64 samples.

Results

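The early response of the nucleus accumbens (NAc) to methamphetamine was described from 12 of the 64 RNA-seq libraries of the series. They came from adult male C57BL/6N mice and were chosen by the tissue and treatment in the sample labels, as 4 NAc libraries of mice injected with methamphetamine and 8 NAc libraries of mice injected with saline, 4 of them titled as set I and 4 as set II. The mice were 8 to 10 weeks old and were killed 2 h after a single intraperitoneal injection. Methamphetamine was given at 2 mg/kg in saline, with no earlier drug exposure stated. Libraries were made from total RNA depleted of ribosomal RNA, and whether each came from 1 mouse or from a pool is not stated in the sources used here, so that the p-values measure the spread between libraries. For comparison, the prefrontal cortex (PFCx) libraries of the same treatments (4 methamphetamine and 8 saline) and 4 NAc libraries of mice given haloperidol, an antagonist of dopamine D2 receptors, at 1 mg/kg were used.

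Methamphetamine enters dopamine nerve terminals and causes transporter-mediated release of dopamine, which in the NAc acts on medium spiny neurons carrying D1 or D2 receptors. Activation of D1 receptors raises cyclic AMP and, through CREB and MAP kinase, switches on immediate early genes within minutes to hours. These encode transcription factors of the Fos, Egr and Nr4a families, synaptic effectors such as Arc and the short form of Homer1, and phosphatases that shut MAP kinases off again.

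The depth estimated for the 12 libraries was 2.03 to 3.26 gigabases of aligned sequence. The labels assign a set only to saline. Methamphetamine was placed with set I from the tables, since its 4 libraries list 86574 to 87676 transcripts above 0, those of saline set I 85397 to 87827, and those of saline set II 109231 to 110063. The saline sets themselves differed, with 1335 genes higher and 2085 lower in set I than in set II (4.57% and 7.13% of 29240, limma, adjusted p under 0.05). The tissue label was borne out by the 17 medium spiny neuron genes, whose FPKM summed to between 854 and 1087 in the 12 libraries and to between 169 and 252 in the 8 PFCx saline libraries. The 9 markers of cortical glutamatergic neurons, all detected, summed to 67.9 to 108 FPKM after methamphetamine, 81.6 to 105 in saline set I and 49.6 to 69.7 in saline set II. The 5 red blood cell markers summed to 79.3 to 88.2, 74.1 to 102 and 40.2 to 71.1. Every set II library was thus below every set I library in both lists, and the treated libraries overlapped set I in both, with the lowest also within the range of set II for the cortical list. The sums of oligodendrocyte markers (567 to 629 FPKM in set II, 676 to 776 in set I), astrocyte markers (319 to 357 and 369 to 391.6) and oligodendrocyte precursor markers (14 to 15.9 and 17 to 17.7) were likewise lower in set II, and that of meningeal markers (5.14 to 8.04 and 3.91 to 4.88) was higher. After methamphetamine these 4 sums were 660 to 738, 356 to 393, 17.5 to 18.1 and 3.89 to 4.85. Microglia markers (32.4 to 33.6 FPKM in set II, 35.4 to 41.3 in set I) and interneuron markers (49.5 to 53.9 and 56.5 to 71.7) were lower in set II too. Their sums after methamphetamine, 32.8 to 35.9 and 52.6 to 69.9, reached into the ranges of both sets. The part of these cells in the results was not tested. NAc results are given against all 8 saline libraries and, for the genes and lists that matter most, against set I alone; these comparisons share libraries and are not independent.

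Of 29240 genes with a mean level of at least 0.1 FPKM (fragments mapped, scaled by transcript length and library size, here summed over the transcripts of a gene), 63 were higher after methamphetamine than in the 8 saline libraries (0.215% of genes) and 13 were lower (0.0445%; limma on log2(FPKM + 1), Benjamini-Hochberg adjusted p under 0.05, with the spread estimated over all 32 NAc libraries). With the 12 libraries alone in the fit, 19 were higher and 1 lower. With libraries rescaled to a common 75th percentile of FPKM the split was 27 higher and 11 lower, and with a pseudocount of 0.1 in place of 1 it was 45 and 42. Of the 63, 50 were protein-coding, a share that was not set against all genes. The lists of early transcription factors, early effectors and MAP kinase feedback genes (28, 32 and 17 of the 29240 genes tested) held 24 of the 63. These lists were chosen with earlier results of these data known. Of the 63, 53 had all 4 methamphetamine libraries above all 8 saline libraries, as 0.479% of all genes did. Without methamphetamine replicates 1, 2, 3 or 4 the number of higher genes was 34, 41, 39 and 36, and without saline set I replicate 3 it was 106.

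**Figure D1:**
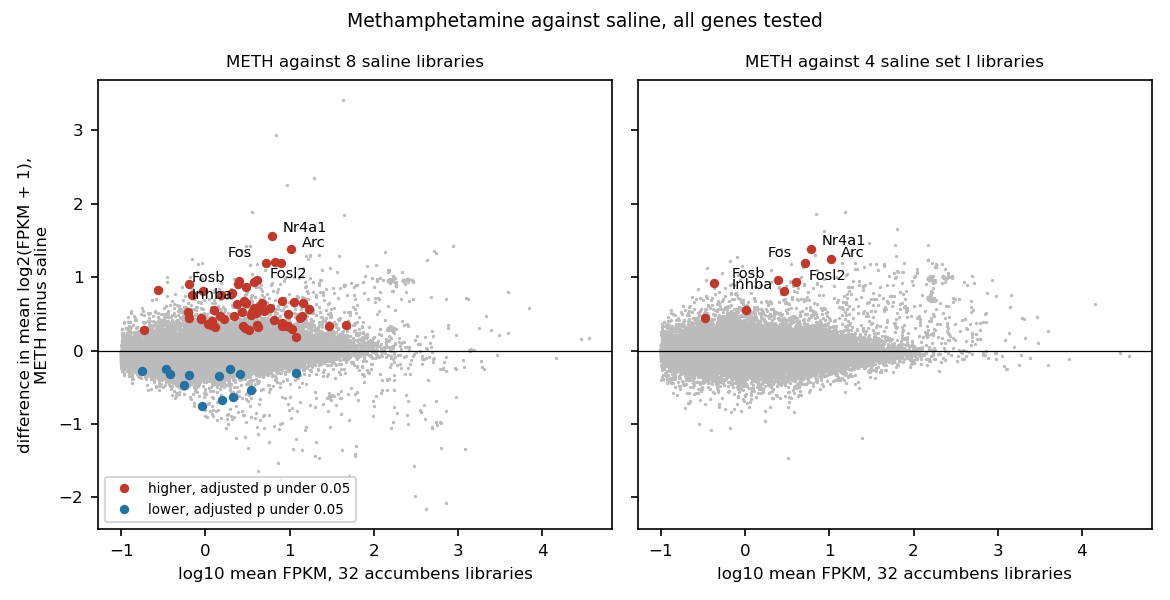
Difference in mean log2(FPKM + 1) between methamphetamine (METH) and saline against the log10 of the mean FPKM, for the 29240 genes tested, against 8 saline libraries (left) and 4 set I libraries (right). Coloured points passed an adjusted p of 0.05: 63 higher and 13 lower on the left, 9 higher on the right.

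Against saline set I, 9 genes were higher (0.0308%) and 0 lower (0%), while 1924 genes had an unadjusted p under 0.05 (6.58%). This fit took its spread from 8 libraries and the one with 8 saline libraries from 32, so that the counts differ in the fit as well as in the controls: with all 32 libraries in the fit, 31 genes were higher and 2 lower than in set I. With the replicate number, which was taken to pair these libraries, as a block in the fit of 8, 0 genes passed (2401 at an unadjusted p under 0.05). In that blocked fit 0 passed for each count against set I below as well. Of the 9, 3 short RNAs (Gm23725, Gm25105 and AC157602.1) had a mean under 0.001 FPKM in set I and are not described further. The other 6 also passed against 8 saline libraries and had all 4 methamphetamine libraries above all 8 saline libraries. They were Nr4a1, Arc, Fos, Fosl2, Fosb and Inhba. Since the naming rule required this separation, it is a description and no further test of these genes.

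Nr4a1, an orphan nuclear receptor (ENSMUSG00000023034, chromosome 15, 101254269 to 101274795, GRCm38), showed the largest log2 difference of the 63. Its FPKM was 13.2, 12.3, 10.9 and 12.4 in the methamphetamine libraries, 4.52, 3.19, 4.2 and 4.34 in saline set I and 3.32, 2.78, 3.21 and 2.62 in set II. The lowest treated library thus lay far above the highest saline library. The log2 difference was 1.56 (SE 0.10, adjusted p = 6.39e-11, limma) against 8 libraries and 1.39 (SE 0.10, adjusted p = 0.0109) against set I.

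Arc, a cytoskeletal protein of active synapses (ENSMUSG00000022602, chromosome 15, 74669083 to 74672570), measured 21.9, 17.5, 15.3 and 19.3 FPKM after methamphetamine. It measured 7.49, 6.44, 7.32 and 7.5 in saline set I and 6.68, 5.25, 5.12 and 5.81 in set II. The groups did not overlap, and the log2 difference was 1.39 (SE 0.11, limma adjusted p = 6.98e-09) with 8 libraries and 1.24 (SE 0.11, adjusted p = 0.0230) with set I.

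Of the 4 Fos family genes, which dimerise with Jun proteins to form AP-1, Fos, Fosb and Fosl2 rose. Fosl1 did not pass, at 0.874 to 1.16 FPKM after methamphetamine and 0.543 to 1.63 in saline (log2 difference 0.05, limma adjusted p = 0.888; -0.02 and 0.999 with set I). Fos (ENSMUSG00000021250, chromosome 12, 85473890 to 85477273) measured 7.13, 7.47, 6.61 and 5.80 FPKM after methamphetamine, against 2.79, 2.51, 1.87 and 2.40 in set I and 3.40, 1.59, 2.73 and 2.02 in set II. Its level of 6.75 ± 0.728 (SD, n = 4) was 2.80 times the mean of the 8 saline libraries. Fosb (ENSMUSG00000003545, chromosome 7, 19302696 to 19310051) measured 3.5, 2.60, 2.77 and 2.90, against 0.946, 1.26, 1.02 and 0.863 in set I and 1.19, 1.03, 1.02 and 1.47 in set II. Fosl2 (ENSMUSG00000029135, chromosome 5, 32135801 to 32157842) measured 6.55, 5.69, 5.81 and 6.72, against 2.66, 2.99, 2.93 and 2.49 in set I and 2.31, 2.5, 2.98 and 2.71 in set II. In the 3 risen genes the saline sets overlapped each other and the treated libraries stood above both. Log2 differences against 8 libraries were 1.2 (SE 0.12, adjusted p = 1.13e-06, limma) for Fos, 0.91 (SE 0.09, adjusted p = 3.37e-07) for Fosb and 0.96 (SE 0.08, adjusted p = 2.85e-08) for Fosl2. Against set I they were 1.19, 0.96 and 0.93, with limma adjusted p = 0.0230, 0.0304 and 0.0109.

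Inhba, a subunit of the secreted ligand activin A (ENSMUSG00000041324, chromosome 13, 16011851 to 16031621), measured 3.89, 4.13, 3.70 and 4.49 FPKM after methamphetamine, against 2.00, 1.68, 1.65 and 2.21 in set I and 2.63, 2.15, 2.94 and 2.29 in set II. The log2 difference was 0.67 (SE 0.13, limma adjusted p = 0.0128) with 8 libraries and 0.81 (SE 0.08, adjusted p = 0.0460) with set I. Against 8 libraries its call was lost without methamphetamine replicate 2 (limma adjusted p = 0.0534) or 4 (0.0788), and in 1 of the 9 other settings of the fit (0.0958). The calls of Nr4a1, Arc, Fos, Fosl2 and Fosb held in those 9 settings and in each of the 12 fits that left out a library. Against set I leaving out a library ended the call in 5 of 8 fits for Nr4a1, 7 for Arc and Fos, 4 for Fosl2 and 8 for Fosb and Inhba, with adjusted p up to 0.266. In the blocked fit against set I the adjusted p of the 6 genes was 0.358 to 0.504. Among the 8 settings against set I other than leaving out a library, the block included, the call was lost in 5 for Inhba. It was lost in 2 for Fos and Fosb and in 1 for Nr4a1, Arc and Fosl2. The marker sums of cortical neurons and red blood cells, lower in set II, overlapped between methamphetamine and set I. Those of microglia and interneurons after methamphetamine reached into both sets. The part of these cells in the results for the 6 genes was not tested.

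**Figure D2:**
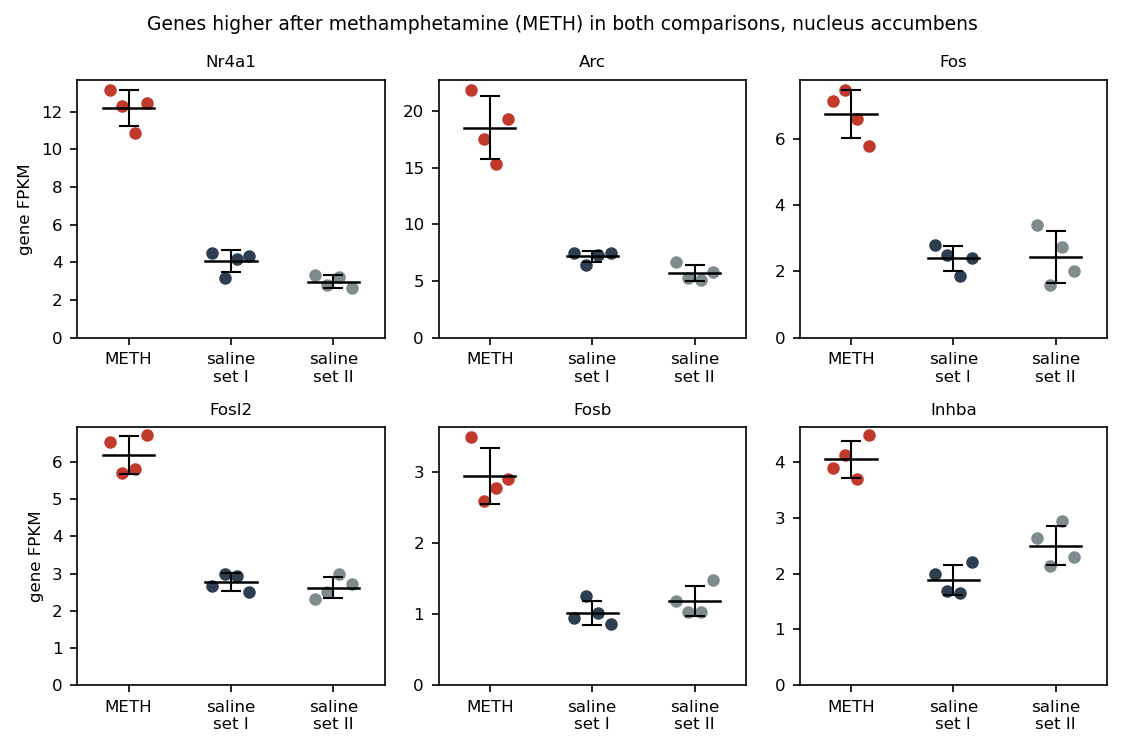
FPKM of the 6 genes that were higher after methamphetamine (METH) in both comparisons, in each NAc library. Points are libraries, bars the mean and whiskers the SD of 4 libraries; in every panel all treated libraries lie above all 8 saline libraries, from 10.9 against at most 4.52 for Nr4a1 to 3.70 against at most 2.94 for Inhba.

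The promoters of the 4 of these genes with the lowest p that have an entry in the RefSeq table are shown because early genes of this kind are classically switched on through CREB, which binds the cyclic AMP response element TGACGTCA and its core TGACG. Each is the 250 bases before the RefSeq start (GRCm38.p6), 5′ to 3′ on the strand of the gene, at chr15:101266596-101266845 (+) for Nr4a1, chr5:32136222-32136471 (+) for Fosl2, chr7:19310046-19310295 (-) for Fosb and chr12:85473640-85473889 (+) for Fos, with TGACG or its reverse complement CGTCA in capitals:
Nr4a1: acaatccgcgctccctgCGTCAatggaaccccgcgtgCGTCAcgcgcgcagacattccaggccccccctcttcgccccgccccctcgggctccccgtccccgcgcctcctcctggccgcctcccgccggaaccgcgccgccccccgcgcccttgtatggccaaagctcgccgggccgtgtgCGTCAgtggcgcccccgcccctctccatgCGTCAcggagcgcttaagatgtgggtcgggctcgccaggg
Fosl2: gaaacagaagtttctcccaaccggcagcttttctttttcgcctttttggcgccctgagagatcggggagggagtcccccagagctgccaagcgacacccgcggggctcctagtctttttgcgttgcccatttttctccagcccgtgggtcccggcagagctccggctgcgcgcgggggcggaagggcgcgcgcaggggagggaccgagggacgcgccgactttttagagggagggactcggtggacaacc
Fosb: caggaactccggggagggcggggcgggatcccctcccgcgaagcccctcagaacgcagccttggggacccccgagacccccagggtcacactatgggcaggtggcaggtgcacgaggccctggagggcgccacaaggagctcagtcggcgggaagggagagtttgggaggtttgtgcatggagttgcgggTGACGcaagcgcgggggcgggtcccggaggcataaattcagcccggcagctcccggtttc
Fos: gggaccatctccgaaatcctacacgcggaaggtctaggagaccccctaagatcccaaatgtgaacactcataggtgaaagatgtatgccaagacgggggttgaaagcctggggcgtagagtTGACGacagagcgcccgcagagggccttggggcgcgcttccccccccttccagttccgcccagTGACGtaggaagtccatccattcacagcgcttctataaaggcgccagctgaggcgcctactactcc
Nr4a1 holds 4 such cores, Fos 2, Fosb 1 and Fosl2 0. Counted on both strands, the core is in the windows of 26 of the 40 risen genes matched in the table (65%) and of 19.8% of all 27025 genes in it. The full site TGACGTCA, which contains the core, is in 6 of the 40 (15%) and in 1.77% of all genes. AP-1 sites (TGANTCA) are in 1 of the 40 (2.5%) against 7.82% of all genes, and CArG boxes in 2 (5%) against 1.62%. EGR sites (GCGNGGGCG) are in 6 (15%) against 5.33%. The printed promoters of Nr4a1, Fosl2 and Fosb each hold an EGR site, not capitalised, with its first base at -60, -79 and -50 from the start. Of the 5 genes named by both comparisons that have a RefSeq promoter, 3 hold the core, 3 an EGR site and 0 the full site. These letter matches are descriptions and not measured binding.

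Of the 28 immediate early transcription factors tested, 10 rose and 0 fell against 8 saline libraries, and 4 rose against set I. Over all genes 0.215% rose and 0.0445% fell against 8, and 0.0308% rose and 0% fell against set I. The same shares apply to each list count below. Members and lists were chosen with earlier results of these data known, so that these counts are descriptions and no independent test. The median log2 difference was 0.33 against 8 and 0.23 against set I, where the medians of all genes were -0.03 and -0.0038. Beyond the genes above, Egr1, a zinc finger factor of synaptic plasticity, measured 15.9, 16.2, 12.6 and 15.6 FPKM after methamphetamine and 8.15 to 10.2 in the 8 saline libraries, a log2 difference of 0.66 (SE 0.08, limma adjusted p = 2.66e-05; 0.71 and 0.101 with set I). Egr4 measured 4.64 to 6.102 FPKM against 1.64 to 2.89 (0.93, SE 0.10, limma adjusted p = 1.02e-06; 0.82 and 0.0879 with set I). With all 32 libraries in the fit, both passed against set I (adjusted p = 0.000113 for Egr1 and 7.89e-05 for Egr4). The other 4 were Junb, Egr2, Nr4a3 and Nfil3. Nr4a3, a relative of Nr4a1, measured 4.07 to 5.58 FPKM against 1.63 to 2.67 in saline (log2 difference 0.87, limma adjusted p = 2.68e-05; 0.133 with set I), and Egr2 1.78 to 2.38 against 0.369 to 1.07 (0.76, adjusted p = 0.00041; 0.116 with set I). These 2, like Junb, were picked out after their values were seen. Junb also differed between the saline sets, at 10.1 to 15.2 FPKM after methamphetamine, 5.41 to 6.74 in set I and 3.10 to 4.50 in set II, and its log2 difference was 1.2 with 8 libraries and 0.88 with set I (limma adjusted p = 0.157). Npas4, a neuron-specific activity factor, did not pass: 2.46 to 3.36 FPKM overlapped 1.35 to 2.72 in saline (log2 difference 0.40, limma adjusted p = 0.191; 0.38 and 0.732 with set I). Bhlhe40 did not pass either, at 7.195 to 11.2 against 5.96 to 8.68 FPKM (0.30, adjusted p = 0.241; 0.29 and 0.791 with set I). In bulk tissue a change in the number of expressing cells cannot be told apart from a change in RNA per cell.

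Of 32 early effector and synaptic genes, 10 rose and 0 fell against 8 libraries and 2, Arc and Inhba, rose against set I (medians 0.31 and 0.22). Pcsk1, a prohormone convertase, measured 3.42 to 5 FPKM after methamphetamine against 1.98 to 3.01 in saline (log2 difference 0.65, SE 0.10, limma adjusted p = 0.00164). Midn measured 7.23 to 9.03 against 3.70 to 6.16 (0.58, adjusted p = 0.00587, limma), and Arl4d, an Arf-like GTPase, 3.91 to 5.58 against 2.32 to 3.65 (0.57, adjusted p = 0.00529, limma). Plk3, a stress-responsive kinase, overlapped saline in 1 of 4 libraries (0.79 to 1.57 against 0.498 to 0.84 FPKM; log2 difference 0.43, limma adjusted p = 0.00963). None of these 4 passed against set I, with adjusted p from 0.354 to 0.67; in the fit of 32 libraries Pcsk1 did (adjusted p = 0.0125). Against 8 libraries, the calls of Arl4d, Midn and Plk3 were lost without methamphetamine replicate 1 (adjusted p = 0.0563, 0.0547 and 0.0518, limma), that of Plk3 also without replicate 4 (0.0931), and all 3 with the 12 libraries alone in the fit (0.11, 0.0917 and 0.161).

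Of the 17 phosphatases and other inhibitors that restrain MAP kinases, 4 rose and 0 fell against 8 libraries and 0 passed against set I (medians 0.18 and 0.17). Dusp4 measured 1.60 to 2.05 FPKM after methamphetamine and 0.647 to 1.14 in saline (log2 difference 0.56, SE 0.07, limma adjusted p = 8.77e-05). Dusp1 measured 5.90, 6.72, 4.24 and 5.91 FPKM, against 4.13, 3.45, 3.81 and 3.66 in set I and 3.01, 2.58, 2.59 and 3.94 in set II (0.60, SE 0.10, limma adjusted p = 0.00434). The lowest treated library thus lay close to the highest saline library. Dusp14 measured 15.5 to 19.3 FPKM against 10.5 to 13.9 (0.47, adjusted p = 0.0148, limma). Dusp6, which acts on ERK, overlapped saline, at 4.84 to 7.25 against 3.21 to 5.61 (0.54, adjusted p = 0.0218, limma). The call of Dusp6 was lost without methamphetamine replicates 1, 2 or 4 (adjusted p = 0.138, 0.083 and 0.129, limma) or saline set II replicate 2 (0.0508), and that of Dusp14 without methamphetamine replicates 1 or 4 (0.108 and 0.0825). With the 12 libraries alone in the fit, Dusp1, Dusp6 and Dusp14 did not pass (adjusted p = 0.161, 0.295 and 0.0705), and after rescaling Dusp6 and Dusp14 did not (0.0793 and 0.132). With all 32 libraries in the fit, Dusp4 passed against set I (adjusted p = 0.00325).

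**Figure D3:**
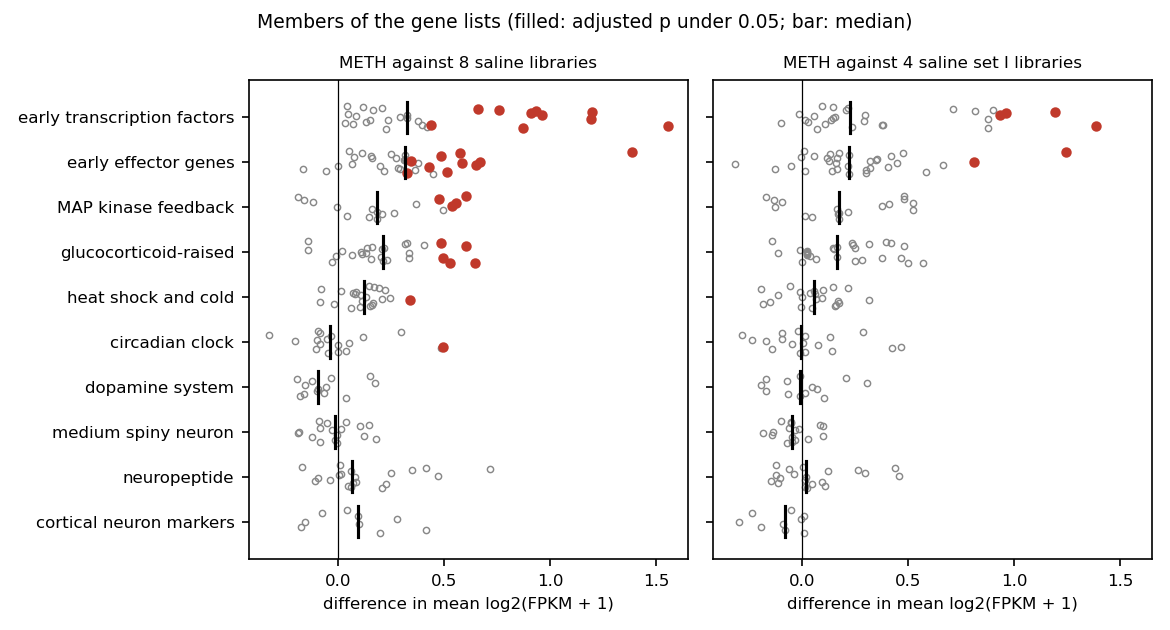
Difference in mean log2(FPKM + 1) between methamphetamine (METH) and saline for each tested member of 10 gene lists, against 8 saline libraries (left) and 4 set I libraries (right). Filled points passed an adjusted p of 0.05 and the black bar is the median of the list; early transcription factors reach 1.56 on the left and cortical neuron markers have a median of 0.09 on the left and -0.08 on the right.

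Of 28 genes known to be raised by glucocorticoids, the stress steroids, 5 rose and 0 fell against 8 libraries and 0 passed against set I (medians 0.21 and 0.17). Tsc22d3, which encodes the anti-inflammatory protein GILZ, measured 17.7, 15.3, 18.6 and 16.8 FPKM, against 9.82, 11.2, 13.3 and 10.6 in set I and 8.88, 9.93, 9.996 and 10.97 in set II (log2 difference 0.65, SE 0.10, limma adjusted p = 0.00164). Zbtb16 measured 2.70 to 3.63 FPKM against 1.31 to 2.39 (0.53, adjusted p = 0.0108, limma), and Cdkn1a, the cell cycle inhibitor p21, 3.52 to 4.34 against 2.01 to 2.92 (0.49, adjusted p = 0.0136, limma). Per1, a clock gene with glucocorticoid and CREB inputs, measured 12.02, 11.5, 10.8 and 12.96 against 7.07 to 10.2 in the 8 saline libraries (0.50, SE 0.10, limma adjusted p = 0.0195). It was the only member of the 18 clock genes that passed against 8 libraries. Fkbp5, the co-chaperone of the glucocorticoid receptor, did not pass, at 5.68 to 6.84 FPKM against 4.78 to 5.70 (0.22, limma adjusted p = 0.2; 0.25 and 0.633 with set I). Dusp1 is in this list too. The call of Per1 was lost without methamphetamine replicates 1, 2 or 4 (adjusted p = 0.0816, 0.0599 and 0.118, limma), that of Zbtb16 without replicates 1 or 3 (0.0621 and 0.0752) and that of Cdkn1a without replicates 1 or 2 (0.0918 and 0.066). All 3 were lost after rescaling (adjusted p = 0.132, 0.0826 and 0.0812), and Per1 and Zbtb16 with the 12 libraries alone in the fit (0.11 and 0.215). Tsc22d3 passed in each of these, and with all 32 libraries in the fit also against set I (adjusted p = 0.0433).

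Among 22 heat shock and cold-induced genes, Hspa5, the chaperone of the endoplasmic reticulum, was the only member that passed against 8 libraries. It measured 34.4 to 41.8 FPKM after methamphetamine and 27.3 to 32.99 in saline (log2 difference 0.34, SE 0.07, limma adjusted p = 0.0307), and 0 members passed against set I. Its call was lost without methamphetamine replicates 1, 3 or 4 (adjusted p = 0.192, 0.0862 and 0.0593, limma) or saline set II replicates 1 or 2 (0.0634 and 0.0655), with a pseudocount of 0.1 (0.053), after rescaling (0.226) and with the 12 libraries alone in the fit (0.177). Hspa1a and Hspa1b, which are near-identical copies whose reads cannot be divided with confidence, differed by 0.13 and 0.25 on the log2 scale with adjusted p = 0.508 and 0.328 (limma). The cold-induced Cirbp differed by -0.08 (adjusted p = 0.752). It measured 13.3 to 16.4 FPKM after methamphetamine and 16.7 to 18.3 in set I (log2 difference -0.20, limma adjusted p = 0.732). The metabolic list gave Irs2, the insulin receptor substrate, and Slc2a1, the glucose transporter GLUT1, as the 2 of its 15 genes that rose, and the cyclic AMP list gave Irs2 and Sik1, a kinase that restrains CREB co-activators, as 2 of 23. Irs2 measured 9.33 to 10.1 FPKM after methamphetamine and 4.27 to 7.04 in saline (log2 difference 0.68, limma adjusted p = 0.000964; 0.1 with set I). Sik1 measured 2.89 to 3.54 against 1.36 to 2.24 (0.64, adjusted p = 2.12e-05; 0.177 with set I). Slc2a1 differed by 0.44 (adjusted p = 0.0381; 0.27 and 0.605 with set I) and was also higher in saline set I than in set II, at 11.2 to 13.3 against 8.11 to 10.1 FPKM. These 3 were picked out after their values were seen.

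Of 13 tested genes of dopamine synthesis, transport, breakdown and reception, 0 passed in either comparison (median log2 difference -0.10 against 8 libraries and -0.0096 against set I). Over all genes 0.215% were higher and 0.0445% lower against 8, and 0.0308% and 0% against set I. At these shares most lists of this size would give 0 calls. The D1 receptor Drd1 measured 26.3 to 30.5 FPKM after methamphetamine and 27.4 to 36.7 in saline (log2 difference -0.19, SE 0.07, limma adjusted p = 0.294). The D2 receptor Drd2 measured 11.1 to 14.95 FPKM against 11.97 to 18.3 (-0.12, adjusted p = 0.569, limma). The dopamine transporter Slc6a3, made in midbrain cell bodies, measured 0.0278 to 0.0944 FPKM against 0.07 to 0.346 (-0.16, adjusted p = 0.326, limma).

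The 17 genes common to medium spiny neurons, the 8 genes of the direct and the 7 of the indirect pathway, and 20 neuropeptide precursors likewise gave 0 calls in both comparisons. Lists this small would mostly give 0 calls at the shares over all genes given above. Penk, the enkephalin precursor of D2 neurons, was at 217 ± 15.5 FPKM after methamphetamine and 232 ± 20.6 in saline (SD, n = 4 and 8; log2 difference -0.09, limma adjusted p = 0.665). Pdyn, the dynorphin precursor of D1 neurons, was at 39.3 ± 2.71 and 37.2 ± 3.26 (0.08, adjusted p = 0.712, limma). Tac1 was at 73.4 ± 1.67 against 63.3 ± 10.1, but at 71.4 to 75.04 after methamphetamine against 65.6 to 74.7 in set I and 45.8 to 64.1 in set II (log2 difference 0.23 and 0.05, limma adjusted p = 0.455 and 0.883). Adora2a, the adenosine receptor of D2 neurons, measured 19.5 to 21.5 FPKM against 18.3 to 26.5 (-0.15, adjusted p = 0.433, limma). In set I it measured 22.4 to 25.3 FPKM, above the treated range, with a log2 difference of -0.20 (limma adjusted p = 0.576).

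The 13 lower genes held 8 protein-coding genes, a share that was not set against all genes. Of the 13, 9 had all 4 methamphetamine libraries below all 8 saline libraries, as 0.52% of all genes did. None belonged to any list and 0 passed against set I. Ganc, an alpha-glucosidase picked out after its values were seen, measured 1.16 to 1.51 FPKM after methamphetamine, 1.98 to 2.36 in set I and 1.81 to 3.33 in set II (log2 difference -0.63, SE 0.11, limma adjusted p = 0.00461; -0.53 and 0.116 with set I). The number of lower genes was 2 to 24 when single libraries were left out.

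Among 71879 transcripts tested singly, 38 were higher (0.0529%) and 3 lower (0.00417%) against 8 libraries, and 5 were higher (0.00696%) and 1 lower (0.00139%) against set I. Of the 41 called against 8 libraries, 11 belonged to genes whose sum was not called. Of those called against set I, 1 had 0 FPKM in every set I library. In all, 2 transcripts with a mean of at least 1 FPKM passed both comparisons without overlapping the 8 saline libraries. Cufflinks divides reads shared by overlapping isoforms by likelihood, so that transcript values of a gene depend on each other. Homer1, a scaffold of the postsynaptic density, makes long forms that link glutamate receptors and a short activity-induced form that uncouples them. Its transcript ENSMUST00000102752, with a coding length of 558 bases, measured 11.4, 11.6, 10.1 and 11.5 FPKM after methamphetamine, 5.59, 6.15, 5.02 and 5.84 in set I and 5.62, 6.51, 6.28 and 6.27 in set II. The treated libraries lay well apart from all 8 (log2 difference 0.82, SE 0.07, limma adjusted p = 2.44e-07; 0.87 and 0.0565 with set I).

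The transcripts with the longest coding sequences differed little from saline. ENSMUST00000080127, with a coding length of 1098 bases, measured 6.98 to 10.6 FPKM after methamphetamine and 7.48 to 9.70 in saline (log2 difference -0.0091, limma adjusted p = 0.988), and ENSMUST00000079086, with 1110 bases, 4.32 to 7.51 against 5.43 to 7.75 (-0.02, adjusted p = 0.971, limma). The other 6 tested Homer1 transcripts had log2 differences of -0.46 to 0.62 and none passed. The gene sum, 51.3 to 61.6 FPKM against 38.6 to 46.7, differed by 0.34 (SE 0.07, limma adjusted p = 0.016; adjusted p = 0.471 with set I), a call lost without methamphetamine replicates 1 or 3 (0.067 and 0.122), after rescaling (0.147) and with the 12 libraries alone in the fit (0.139). Whether the transcripts differed from each other in their response was not tested.

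Sgk1, a serum and glucocorticoid regulated kinase, did not pass as a gene sum (17.7 to 25.6 FPKM against 16.1 to 21.6; log2 difference 0.23, limma adjusted p = 0.362). Its transcript ENSMUST00000020145 measured 6.25, 6.91, 8.52 and 3.46 FPKM after methamphetamine, against 1.87, 1.25, 0.929 and 1.00 in set I and 1.58, 2.43, 2.18 and 2.96 in set II. All 4 treated libraries were above all 8, although the fourth only narrowly (1.38, SE 0.20, limma adjusted p = 0.000864; 1.65 and 0.267 with set I). It did not pass with the 12 libraries alone in the fit (adjusted p = 0.149). The transcript ENSMUST00000120509, which starts further upstream, measured 3.46 to 5.197 against 4.00 to 6.11 (-0.17, adjusted p = 0.685, limma). The main transcript of the clock gene Per2, picked out after its values were seen, measured 4.39 to 5.48 FPKM against 3.01 to 3.34 (ENSMUST00000069620; 0.50, SE 0.07, limma adjusted p = 0.00159; 0.49 and 0.267 with set I). With all 32 libraries in the fit, these Homer1, Sgk1 and Per2 transcripts passed against set I (adjusted p = 1.3e-06 for ENSMUST00000102752, 0.000241 for ENSMUST00000020145 and 0.0185 for ENSMUST00000069620). Of the 15 Dclk1 transcripts, the kinase gene on which the study centred, none passed against 8 libraries (lowest adjusted p = 0.265, limma) or set I (lowest 0.704).

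**Figure D4:**
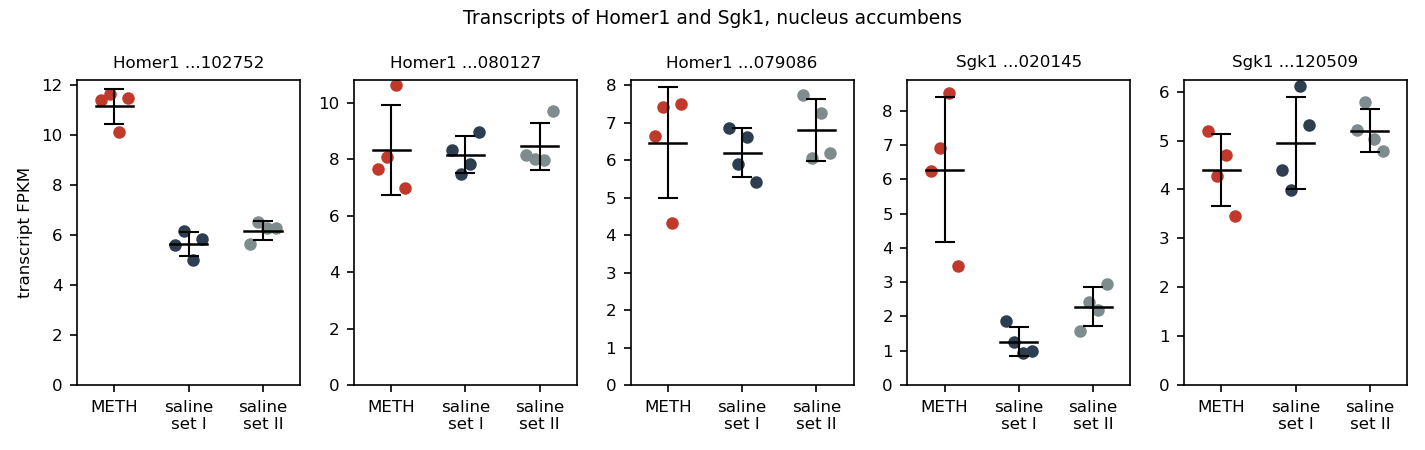
FPKM of 3 transcripts of Homer1 and 2 of Sgk1 in each NAc library, named by the end of their Ensembl number. Points are libraries, bars the mean and whiskers the SD of 4 libraries; the first Homer1 and the first Sgk1 transcript are higher in every methamphetamine (METH) library (at least 10.1 and 3.46) than in every saline library (at most 6.51 and 2.96), and the others overlap saline.

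In the PFCx, 36 genes were higher and 8 lower after methamphetamine (0.123% and 0.0274% of 29240), with the 8 saline libraries as 1 group. The PFCx saline sets I and II did not overlap for Fos (3.31 to 5.34 and 5.57 to 6.59 FPKM) or Homer1 (40.2 to 47.1 and 54.1 to 57.7). They overlapped for Arc (5.36 to 7.10 and 6.44 to 10.1). These 3 were picked out after their values were seen. Each of the 22 named genes that rose against the 8 libraries had a positive difference in the PFCx, and 10 of them passed there. These 22 were chosen by their NAc result and not by their PFCx result, which favours larger differences in the NAc. The log2 difference of Fosl2 was 0.96 in the NAc but 0.38 in the PFCx (limma adjusted p = 0.137), with 3.40 to 4.17 FPKM against 2.29 to 3.53 in the PFCx. Inhba had 0.67 and 0.17 (adjusted p = 0.745), Nr4a1 1.56 and 0.90 (adjusted p = 0.00621), and Arc 1.39 and 1.83 (adjusted p = 0.000544). The difference between the tissues, tested by limma as an interaction over 24 libraries, passed for 0 of 29240 genes (0%), with 1689 at an unadjusted p under 0.05 (5.78%). The lowest adjusted p among the 22 was 0.371, that of Fosl2, whose response was 0.58 larger in the NAc (SE 0.11).

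**Figure D5:**
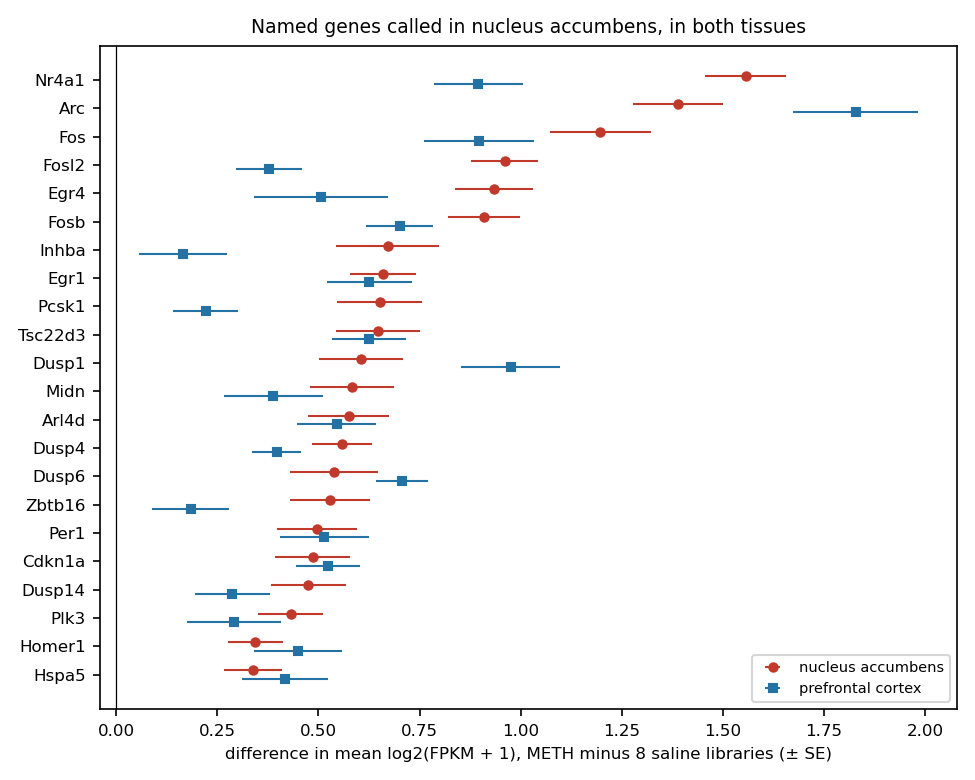
Difference in mean log2(FPKM + 1) between methamphetamine (METH) and 8 saline libraries, with its SE, in the NAc (circles) and PFCx (squares) for the 22 named genes that passed in the NAc. All 22 differences are positive in both tissues. Of these, 15 are larger in the NAc, which the choice of genes by their NAc result favours. None of the tissue differences passed its own test.

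Methamphetamine was also set against haloperidol in the NAc, to ask whether a dopamine releaser and a D2 antagonist differed in the genes they moved. The direct test found 1 gene, Fosb, lower after methamphetamine and 0 higher (0.00342% and 0% of 29240; 2275, or 7.78%, at an unadjusted p under 0.05). Fosb measured 3.5, 2.60, 2.77 and 2.90 FPKM after methamphetamine and 6.07, 6.5, 7.02 and 6.53 after haloperidol, a log2 difference of -0.94 (SE 0.10, limma adjusted p = 1.64e-05). In a fit of only these 8 libraries the adjusted p was 0.0595. Of the 22 named genes that rose, 6 had a higher mean after methamphetamine than after haloperidol (Per1, Pcsk1, Plk3, Dusp4, Tsc22d3 and Hspa5), and none of these passed. Nr4a1 was at 12.2 ± 0.964 FPKM after methamphetamine and 12.5 ± 0.730 after haloperidol (SD, n = 4 each; -0.04, limma adjusted p = 0.999). Fos was at 6.75 ± 0.728 and 10.6 ± 1.101 (-0.58, adjusted p = 0.261), and Arc at 18.5 ± 2.78 and 25.6 ± 2.201 (-0.46, adjusted p = 0.350, limma). Haloperidol was given in saline with a drop of hydrochloric acid, and the vehicle cannot be told apart from the drug.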

How the data were processed

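Total RNA depleted of ribosomal RNA was sequenced on the Ion Proton. The authors aligned reads to GRCm38 (mm10) with TopHat2 2.0.1 and then Tmap, and the Cufflinks 2.2.1 estimates for Ensembl transcripts were deposited per library as FPKM, with the read coverage (signal) of each transcript. How multi-mapped reads were treated is not given in the sources used here. Read counts were not used; aligned bases per library were estimated as the median of coverage over FPKM for transcripts of at least 2000 bases and 5 FPKM.

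Values of 112714 transcripts were taken singly and summed by gene name (46686 names, of which 72 join several gene IDs). Features with a mean of at least 0.1 FPKM over the 32 NAc libraries were tested on log2(FPKM + 1) with limma 3.58.1 in R 4.3.3, and called at a Benjamini-Hochberg adjusted p under 0.05. A fold on this scale understates the change of genes of low level. The comparison with 8 saline libraries used all 32 NAc libraries, the comparison with set I its 8 libraries, the tissue interaction 24 libraries and the comparison with haloperidol all 32. Tables and counts were made in Python 3.11.15. In simulated data with 200 genes changed by 1 on the log2 scale the fits called 193 against 8 libraries (with 11 unchanged genes) and 169 against set I (with 7). For transcripts they called 140 (with 6) and 86 (with 5). The changed features were drawn from those with a mean log2(FPKM + 1) above 1. All simulated libraries shared 1 mean per feature, with no difference between the saline sets. These counts therefore do not show how the fit with 8 saline libraries behaves where the sets differ.

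Replicate numbers were those of the labels. For same-numbered methamphetamine and set I libraries, deviations from the group mean correlated at r = 0.118 to 0.187 over genes in all 4 pairs, above 0.1. Pairs with different numbers had r of -0.165 to 0.118, so that some of them passed 0.1 as well. The numbers were taken to pair these libraries, which no label states. With set II r was -0.0084 to 0.0927 for same numbers and -0.158 to 0.119 for different numbers, and the numbers were not taken to pair those libraries.

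Genes named were those with a mean of at least 1 FPKM that passed both comparisons in the same direction with no overlap with the 8 saline libraries, a fixed set of early, dopamine and stress genes, and up to 6 members per early, stress or clock list that passed with 8. The members and lists were chosen with earlier results of these data known. Coordinates and transcript types came from GENCODE vM21 and promoters from RefSeq. Alternatives were a pseudocount of 0.1, other filters, a mean-variance trend, rescaling, the quantification status, the replicate block, other control sets and leaving out each library. A result on a withheld item is not reported here.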

Additional observations from a re-analysis of the deposited data

Results flagged for a closer look

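Within the 3 groups of 4 NAc libraries, 4 of 108 combinations of a named gene and a group held a library far from the other 3 by Dixon's test, and chance flags about 1 in 20 groups. Egr1 was at 12.6 FPKM in methamphetamine replicate 3, against 15.6 to 16.2 in the other 3. Arc was at 6.44 FPKM in saline set I replicate 2, against 7.32 to 7.5. In saline set II replicate 4, Pdyn was at 40.5 FPKM against 33.6 to 34.1 and Per1 at 9.30 against 7.41 to 7.52.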

How the results depend on the processing

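Against 8 saline libraries, the higher and lower genes (63 and 13) numbered 27 higher after rescaling to the 75th percentile, 19 and 1 in a fit of the 12 libraries alone, 42 lower with a pseudocount of 0.1, 8 lower with a mean of at least 1 FPKM and 8 lower with the replicate block. Against set II alone they numbered 1574 and 3246. Leaving out single libraries gave 34 to 106 higher and 2 to 24 lower. Against set I (9 and 0) they numbered 31 and 2 in the fit of 32 libraries, 0 higher with the replicate block, and 1 to 9 higher and 0 to 2 lower without single libraries; 1 was left without methamphetamine replicate 1, saline set I replicate 1 or saline set I replicate 3, 3 without saline set I replicate 4 and 5 without methamphetamine replicate 2. Transcripts against 8 libraries (38 and 3) numbered 17 higher with a pseudocount of 0.1, 21 and 1 after rescaling, 10 and 0 in the 12 libraries, 932 and 998 with set II, 8 lower with a mean of at least 1 FPKM, 5 lower without a filter, 0 lower with the trend and 1 lower with the block, and 21 to 47 and 0 to 3 without single libraries. Transcripts against set I (5 and 1) numbered 29 and 8 with a pseudocount of 0.1, 9 higher without a filter, 0 lower with a mean of at least 1 FPKM, 0 and 0 with the trend or the replicate block, 2 lower after rescaling and 22 and 3 in 32 libraries, and 0 to 3 and 0 to 1 without single libraries. The cause of these changes was not tested. The fits of 8 or 12 hold fewer libraries and also take their spread from other groups, and these were not separated. The tissue interaction gave 0 genes in all 3 alternatives run. Methamphetamine against haloperidol (0 and 1) gave 0 lower in 8 libraries and 2 and 2 with the replicate block. Of the named genes, signs turned for 4 that passed in no main comparison: Pdyn (-0.0158 after rescaling against 8; -0.0243 to 0.0592 against set I without single libraries), Cirbp (0.0349 against set II), Drd2 (-0.14 to 0.00357 against set I without single libraries) and Hspa1a (against set I, 0.0112 with a pseudocount of 0.1, 0.0049 after rescaling and -0.0814 to 0.0419 without single libraries). Hspa1a, Hspa1b, Npas4 and Slc6a3, not called in the main fits, each passed against 8 in 1 alternative setting (limma adjusted p = 0.042, 0.0128, 0.0406 and 0.0124). At 2.03 gigabases or more per library, and with no read counts, levels near the filter carry the least precision.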
